A study of Rattus norvegicus with 10 samples.

Results

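The comparison described here is cyclic hyperoxia against room air in the retinas of newborn F344 rats, taken across all measured genes. Its members are the 5 F344 arrays among the 10 arrays of the series, chosen by strain and exposure as labelled. They comprise 3 hyperoxia pools and 2 room-air pools, and the comparison was made with and without hyperoxia pool 3. F344 is Fischer 344, an inbred strain that the design text calls resistant to oxygen-induced retinopathy, while it calls the SD strain susceptible. In the hyperoxia groups, mothers and litters entered an oxygen chamber within 12 h of birth and spent alternate periods of 24 h at 80% and 21% oxygen up to postnatal day 3. The controls were rats of the same age kept in room air. The SD groups (2 hyperoxia and 3 room-air pools) had the same exposures and age, and the labels name no engineered allele. Each pool mixed retinal RNA of 3 rats from 2 litters, so a pool is an average over animals. RNA was hybridised to Affymetrix whole-transcript gene arrays, and values are log2 expression per probe set, written to 1 decimal.

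Oxygen-induced retinopathy is a rodent model of retinopathy of prematurity. Retinal vessels of rats grow after birth, led by astrocytes that respond to the low oxygen of tissue that has no vessels yet. In low oxygen the hypoxia-inducible factors are stable and switch on genes for glycolysis, lactate export, mitophagy and vessel growth, among them Vegfa. In high oxygen the prolyl hydroxylases mark these factors for destruction, and growth of the vessels slows. The retina is also still being built in this period, with rods forming and maturing from dividing progenitors.

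Hyperoxia pool 3 stood apart from the other F344 arrays before any comparison was made. On the first principal component of the 5 F344 arrays, which held 49.7% of their variance, pool 3 lay at 35.66 and the other 4 between -14.22 and -3.04. In pool 3, 1336 of 14324 genes lay at least 0.5 (log2) from the room-air mean, against 133 in pool 1 and 126 in pool 2. The second component (18.2%) set pool 1 (17.15) against pool 2 (-16.53), with the room-air pools between them at 4.75 and -2.41. The design text says that an F344 hyperoxia sample and an SD room-air sample were added later on the basis of a principal component analysis. The samples numbered 3 are treated here as those additions, an inference from their numbers. Deviations of these 2 arrays from their own group means correlated across probe sets (r = 0.643), although one is a hyperoxia and the other a room-air pool; probe sets are not independent. Genes of the retina were bright in all F344 arrays: Neurod1 lay between 12 and 12.1, Pax6 at 11.5 or 11.6 and Crx between 10.7 and 11.2. The array medians were 5.9 or 6.

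The effect of hyperoxia in F344 was small for most genes. Between group means, 83.5% of the 14324 genes differed by 0.2 or less on the log2 scale, with a median standard error (SE) of 0.127. Tests were limma's moderated test on a model of all 10 arrays, and p-values were adjusted by Benjamini-Hochberg across the whole array and called under 0.05. One gene passed: Adra1b, which fell. This is 0.00698% of genes tested in the lower direction and 0% in the higher one. Without adjustment, 313 genes were lower (2.19%) and 391 higher (2.73%) at a p under 0.05. With each array centred on its median, that split was 144 lower and 518 higher. Without pool 3 the counts were 238 lower (1.66%) and 161 higher (1.12%), and Adra1b was again the one gene that passed. The p-values rest on the spread between pools within each group over all 10 arrays, SD pools included, and the pools are few.

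By size, 31 genes were lower by at least 0.5 and 84 higher by at least 0.5 with all pools. Without pool 3 the numbers were 33 and 25. At a size of 0.75 or more, 4 genes were lower (3 without pool 3) and 14 higher (2 without pool 3). Leaving out pool 3 thus cut the count of large higher values and not that of lower values of 0.5 or more. In 905 genes (6.32%) all 3 hyperoxia pools lay below both room-air pools, and in 945 (6.6%) all lay above. For pools 1 and 2 alone the counts were 1434 (10%) and 1515 (10.6%).

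**Figure D1:**
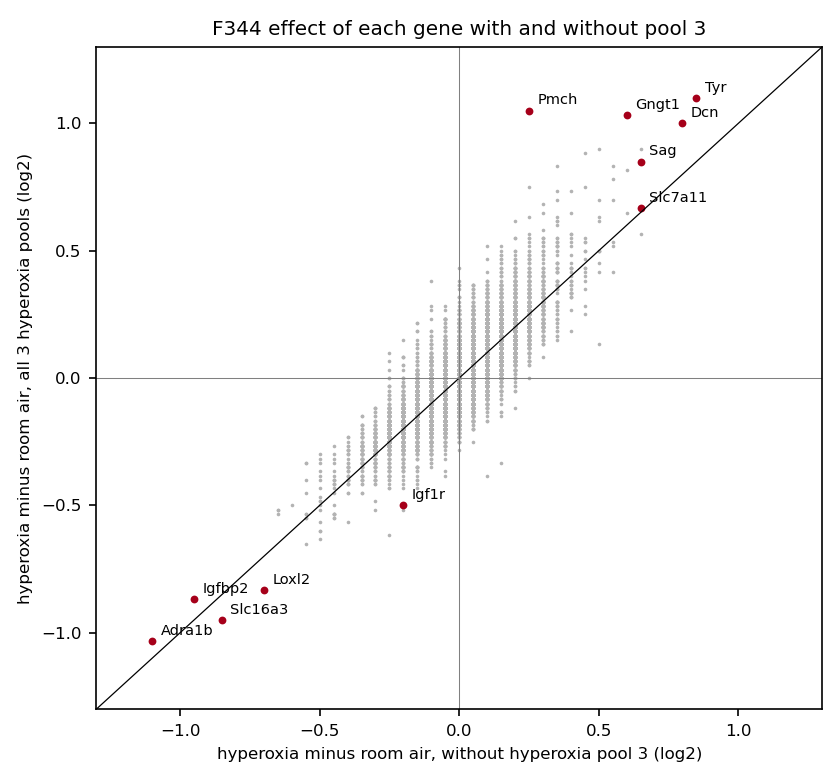
Each point is 1 of 14324 genes, with the log2 difference between F344 hyperoxia and room air without hyperoxia pool 3 on the horizontal axis and with all 3 hyperoxia pools on the vertical axis. The line marks equal values. Adra1b (-1.10 and -1.03), Igfbp2 and Slc16a3 lie near the line at the lower left, while Pmch (0.25 and 1.05) and Gngt1 (0.60 and 1.03) lie above it at the upper right.

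Adra1b encodes the alpha-1B adrenergic receptor, a receptor for noradrenaline and adrenaline. Its level was 5.5, 5.5 and 5.7 in hyperoxia pools 1, 2 and 3, and 6.5 and 6.7 in the room-air pools. The groups did not overlap, and the gap between them was wider than the spread within either. Adra1b fell by 1.03 (SE 0.110), a 2.05-fold lower mean level, with an adjusted p of 0.0173. Without pool 3 it fell by 1.10 (SE 0.113, adjusted p = 0.0191). The direction was the same in all 19 other fits run, with differences from -1.13 to -0.93, but the call was lost in 10. Leaving out 1 array lost it for F344 hyperoxia pool 1 (adjusted p = 0.196) or pool 2 (0.0858) and for F344 room-air pool 1 (0.183) or pool 2 (0.977). The same held for SD hyperoxia pool 1 or 2 (0.0934 each) and for SD room-air pool 1 (0.0618) or pool 2 (0.0683). It was also lost without both arrays numbered 3 (adjusted p = 0.0926) and with only the 5 F344 arrays (0.825). The other adrenergic receptors measured did not follow it. Adra1a stood at -0.07, Adrb3 at 0.00, Adra2b at 0.02, Adra2c at 0.07, Adrb1 at 0.08 and Adra1d at 0.23, and none passed.

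The next smallest p belonged to Igfbp2, which encodes a binding protein that holds insulin-like growth factors outside the cell. It stood at 7.1, 7.4 and 7.5 in hyperoxia and at 8.2 in both room-air pools. All hyperoxia pools were thus lower than room air, by a difference of -0.87 (SE 0.127, adjusted p = 0.233). Without pool 3 the difference was -0.95 (adjusted p = 0.151). Igfbp2 did not pass in the fit used here. It passed in 3 of 20 others, with a term for the arrays numbered 3, with the replicate number as a block and with array weights (adjusted p = 0.0145, 0.0249 and 0.0183).

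Of the 15 measured genes of the insulin-like growth factor axis, 11 lay below 0 and 4 above, none passed, and the median was -0.15 (-0.10 without pool 3). Over all 14324 genes 48.2% lay below 0, 47.1% above, and the median was 0.00. Igf2, a fetal growth factor, was 6.2, 6.2 and 6.3 in hyperoxia against 6.6 in both room-air pools, a difference of -0.37. Igf1r, the receptor, stood at 10.3, 10.3 and 9.4 against 10.5 and 10.5. Its difference of -0.50 came mainly from pool 3, and was -0.20 without it. Igf1, the ligand made in many tissues, was 7.5, 7.9 and 8.4 against 7.6 and 7.6, so its groups overlapped (0.33, and 0.10 without pool 3).

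Promoter sequence is shown for the 2 genes with the smallest p and for Pdk1, a hypoxia-regulated gene of low p, since hypoxia-inducible factors bind a short core at their targets. Each line gives the 250 bases before the RefSeq transcription start in GRCr8, with the strand of the gene, in lower case. Capitals mark the core searched for, ACGTG or GCGTG on either strand.
Adra1b, chr10:28814348-28814597 (minus strand): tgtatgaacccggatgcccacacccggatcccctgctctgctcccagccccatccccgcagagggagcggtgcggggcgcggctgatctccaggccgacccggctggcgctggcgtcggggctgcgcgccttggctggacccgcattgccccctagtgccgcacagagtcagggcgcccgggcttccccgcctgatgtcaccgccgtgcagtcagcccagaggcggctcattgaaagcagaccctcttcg
Igfbp2, chr9:81864561-81864810 (plus strand): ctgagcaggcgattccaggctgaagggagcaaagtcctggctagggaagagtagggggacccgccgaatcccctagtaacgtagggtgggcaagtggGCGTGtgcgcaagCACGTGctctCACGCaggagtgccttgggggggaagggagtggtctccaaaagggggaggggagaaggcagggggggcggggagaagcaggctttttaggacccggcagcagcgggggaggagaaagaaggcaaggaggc
Pdk1, chr3:77113264-77113513 (plus strand): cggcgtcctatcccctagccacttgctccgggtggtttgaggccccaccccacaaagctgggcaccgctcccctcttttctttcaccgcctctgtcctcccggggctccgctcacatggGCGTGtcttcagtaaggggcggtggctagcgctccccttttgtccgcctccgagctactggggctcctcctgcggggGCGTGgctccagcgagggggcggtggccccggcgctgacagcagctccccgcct
The Adra1b window held 0 matches, the Igfbp2 window 4, 2 of which overlap as CACGTG, and the Pdk1 window 2. The core is common: 36.7% of 33469 RefSeq promoter windows held at least 1. Among windows of the hypoxia-inducible factor targets listed here 30 of 48 (62.5%) did, and among those of glycolysis genes 16 of 24 (66.7%). For the 12 lower genes of smallest p without overlap it was 5 of 11 windows (45.5%). For the 12 such higher genes it was 4 of 9 (44.4%), so the core was about as common on both sides. A match describes the letters and is not a measured binding site.

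The targets of hypoxia-inducible factor were mostly lower in F344 hyperoxia, by small amounts, and none passed. Of 49 measured, 37 lay below 0 and 11 above, with a median of -0.17 (-0.15 without pool 3). In 15 of them (30.6%) all hyperoxia pools were below both room-air pools, and in 4 (8.16%) all were above. Over all genes these shares were 6.32% and 6.6%. Slc16a3, which carries lactate out of cells, was 7.2, 8.2 and 7.4 against 8.6 and 8.5. It lay lower in every hyperoxia pool, least so in pool 2, with a difference of -0.95 (SE 0.243, adjusted p = 0.921). Pdk1, which inhibits pyruvate dehydrogenase, was 8.6, 9.1 and 8.9 against 9.4 and 9.4, a difference of -0.53 (SE 0.137). Cox4i2, an oxygen-regulated subunit of cytochrome oxidase, was 8.1, 8.1 and 8.5 against 8.7 and 8.8, a difference of -0.52. In both genes every hyperoxia pool lay below room air. Mif, a cytokine gene, was 9.6 in each hyperoxia pool against 10.1 and 9.9. Without pool 3 the differences were -0.85 for Slc16a3, -0.55 for Pdk1, -0.65 for Cox4i2 and -0.40 for Mif.

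Several of the best known hypoxia-regulated genes overlapped between the groups. Vegfa, the growth factor that drives retinal vessel sprouting, was 9.2, 9.9 and 9.4 in hyperoxia and 9.5 and 9.9 in room air. Its difference was -0.20 (SE 0.180, adjusted p = 0.921). Egln3, an oxygen-sensing prolyl hydroxylase, stood at 6.0, 7.2 and 6.5 against 6.7 and 6.8. Bnip3, a mitophagy receptor, stood at 9.8, 10.2 and 10.6 against 10.4 and 10.3. In both of these, one hyperoxia pool was above both room-air pools and the others below them. The difference in Bnip3 was -0.15, with -0.35 without pool 3 and 0.05 without pool 1. In Egln3 it was -0.18, with -0.15 without pool 3, -0.50 without pool 2 and 0.10 without pool 1. Hk2, a hexokinase, ranged widely between pools, with 7.1, 8.2 and 6.7 against 7.8 and 7.6, a difference of -0.37 (SE 0.349; -0.05 without pool 3). Hmox1, which degrades haem, was 4.7 in all 3 hyperoxia pools and 4.9 in both room-air pools, and Epo, the erythropoietin gene, was 4.7 or 4.8 throughout.

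Some members lay the other way. Ddit4, an inhibitor of mTOR signalling that responds to stress, was 8.8, 9.5 and 8.9 in hyperoxia and 8.4 and 8.6 in room air. All hyperoxia pools were higher, with a difference of 0.57 (SE 0.189), which did not pass. Ankrd37 was 7.3, 8.1 and 7.7 against 7.1 and 7.3, a difference of 0.50, with pool 1 level with a room-air pool. Adm, which encodes the vasodilator adrenomedullin, was 5.0, 5.1 and 5.0 against 4.7 and 4.9.

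Glycolysis genes were mostly lower in F344 hyperoxia. Of 21 measured, 17 lay below 0, 3 above and none passed. The median was -0.23 with all pools, the lowest of the 33 lists, and -0.15 without pool 3, when endothelial genes lay lower (-0.20). In 9 (42.9%, against 6.32% of all genes) every hyperoxia pool was below both room-air pools, and in 0 (6.6% of all genes) every pool was above. The 9 were Slc16a3, Pgk1, Pfkp, Pfkl, Aldoa, Gpi, Tpi1, Ldha and Pkm, the last 8 being enzymes that break down glucose or form lactate. All of the 9 but Pfkp were also counted above among the hypoxia-inducible factor targets, so the lists are not separate results. Pgk1, phosphoglycerate kinase, was 10.1, 10.5 and 9.9 against 10.8 and 10.8, a difference of -0.63 (SE 0.198). Aldoa, an aldolase, was 10.7, 11.0 and 10.7 against 11.3 in both room-air pools, a difference of -0.50 (SE 0.122, adjusted p = 0.921). Pfkp, a phosphofructokinase subunit, was 10.4, 10.6 and 10.2 against 10.9 and 11.1, a difference of -0.60 (SE 0.146). These are genes of high signal, and in each of them pool 2 was the hyperoxia pool nearest to room air. With pool 3 left out, the differences were -0.50 for Pgk1, -0.45 for Aldoa and -0.50 for Pfkp. Gapdh (12.8, 12.9 and 12.7 against 13.0 and 12.9) and Eno1 (12.0, 12.3 and 11.8 against 12.2 and 12.2) overlapped between the groups.

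**Figure D2:**
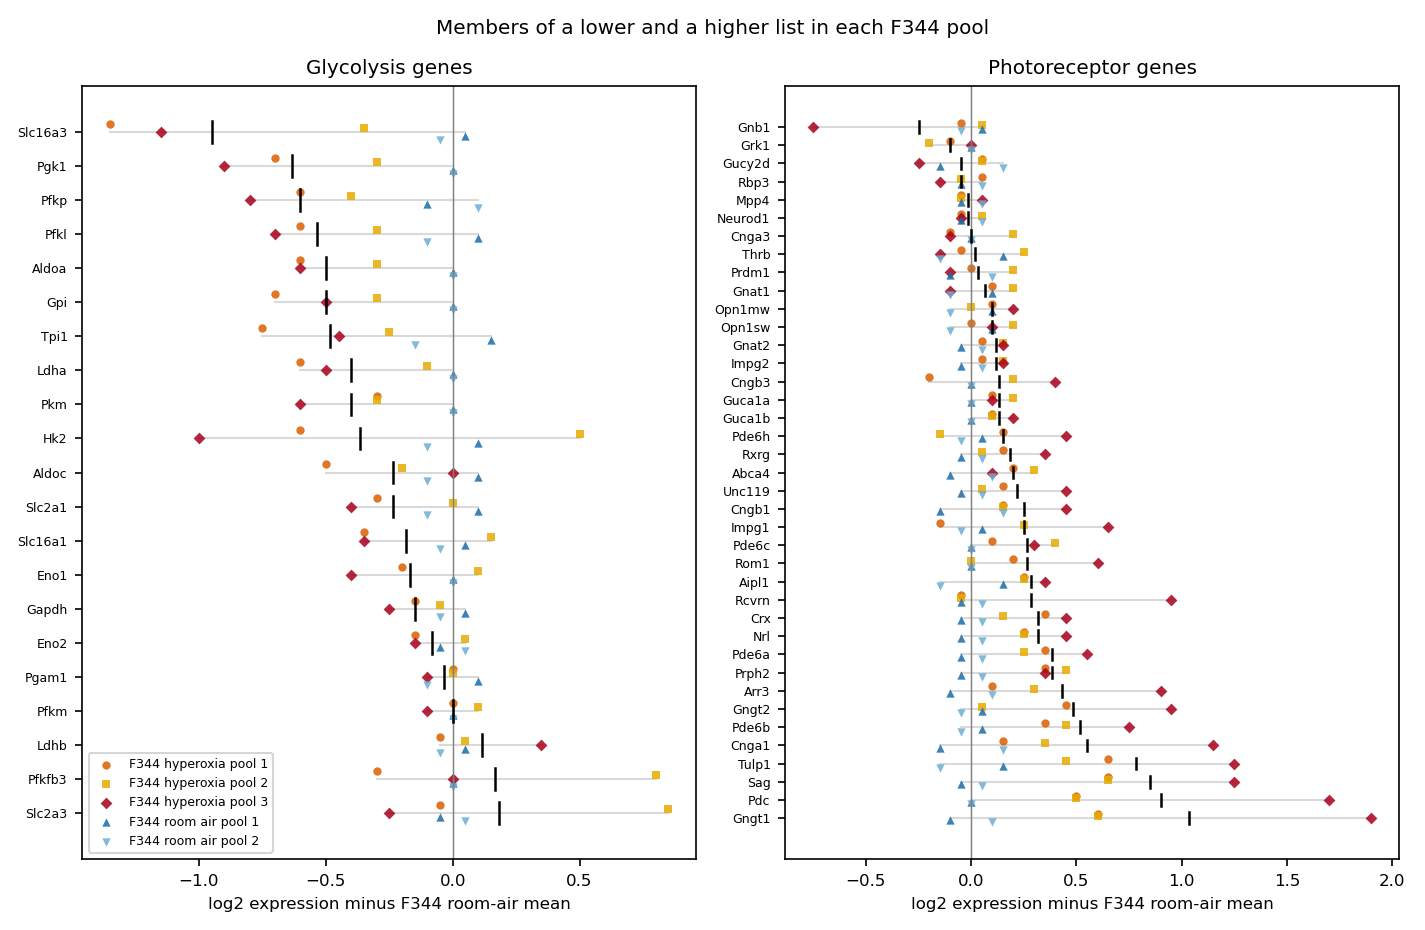
Every measured gene of the glycolysis list (left) and of the photoreceptor list (right), with each F344 pool as a point at its log2 level minus the room-air mean, and a black bar at the mean of the 3 hyperoxia pools. The 9 glycolysis genes from Slc16a3 to Pkm have all hyperoxia points left of the room-air points, with pool 2 nearest to them in most. In the photoreceptor panel pool 3 lies farthest right for Gngt1 (10.1 against a room-air mean of 8.20), Pdc and Sag.

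The hyperoxia pools differed among themselves in these same genes. Against the room-air mean, the median of the hypoxia-inducible factor targets was -0.30 in pool 1, 0.00 in pool 2 and -0.25 in pool 3. For glycolysis the medians were -0.35, -0.05 and -0.40. Pool 2 was the highest hyperoxia pool in 35 of 49 targets (71.4%) and in 17 of 21 glycolysis genes (81.0%), against 25.6% of all genes. The lists share members, so these shares partly count the same genes. Pfkfb3, which makes the activator of phosphofructokinase, was 9.0 in pool 2 and 7.9 and 8.2 in pools 1 and 3, against 8.2 in both room-air pools. Slc2a3, a neuronal glucose transporter, was 8.6 in pool 2 and 7.7 and 7.5 in the others, against 7.7 and 7.8. P4ha1, a collagen prolyl hydroxylase, was 10 in pool 2 and 9.1 and 9.4 in the others, against 9.6 and 9.7. In these 3 genes pool 2 was above room air. The cause of the spread between pools was not tested.

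Endothelial genes lay lower in every hyperoxia pool, with no call. Of 25 measured members, 20 lay below 0 and 5 above, and the median was -0.20 with and without pool 3. In pools 1, 2 and 3 the medians against room air were -0.20, -0.30 and -0.20. In 10 (40%, against 6.32% of all genes) every hyperoxia pool was below both room-air pools. Flt1, a receptor for vascular endothelial growth factor, was 6.0, 6.1 and 6.2 against 6.4 and 6.6, a difference of -0.40 (SE 0.160, adjusted p = 0.921). Cldn5, the tight-junction protein of barrier vessels, was 5.6, 5.6 and 5.4 against 5.8 and 6.0, a difference of -0.37 (SE 0.134). Tie1 was 4.9, 4.8 and 5.1 against 5.2 and 5.4, and Tek, the angiopoietin receptor, was 4.4, 4.6 and 4.6 against 4.7 and 5.2. Each of these genes was lower in all hyperoxia pools, and none passed adjustment. Leaving pool 3 out gave differences of -0.45 for Flt1, Tie1 and Tek and -0.30 for Cldn5. Of the 25 genes, 4 had a mean above 6, about the array median, so most lay low in the range. In whole retina, fewer cells of a type and less RNA per cell cannot be told apart.

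Genes of tip cells, which lead vessel sprouts, and of pericytes, which wrap vessels, gave like values. Of 14 tip cell genes, 10 lay below 0 and 3 above, with a median of -0.16 (-0.10 without pool 3), and 6 (42.9%, against 6.32% of all genes) had all hyperoxia pools below room air. Flt4 was 4.7, 4.5 and 4.5 against 5.0 and 4.9, a difference of -0.38 (SE 0.116). Dll4, a Notch ligand, was 8.1, 8.4 and 7.9 against 8.5 and 8.5, a difference of -0.37. The tip cell markers Esm1 (0.10), Apln (-0.08) and Angpt2 (0.02) overlapped between the groups. Of 14 pericyte and smooth muscle genes 10 lay below 0 and 3 above, with a median of -0.125 with and without pool 3. Notch3, a Notch receptor of mural cells, was 6.5, 6.7 and 6.1 against 7.0 and 7.0, a difference of -0.57 (SE 0.164). Rgs5, a pericyte marker, was 6.3, 6.5 and 6.8 against 7.0 and 7.1, a difference of -0.52 (SE 0.249). Both had every hyperoxia pool below room air. Pools 1 and 2 alone gave differences of -0.40 for Notch3, -0.65 for Rgs5, -0.35 for Flt4 and -0.25 for Dll4. Of the 25 angiogenic factors and receptors 16 lay below 0 and 7 above, with a median of -0.05. Pgf, placental growth factor, went the other way, at 5.7, 5.7 and 6.1 against 5.4 and 5.5 (0.38; 0.25 without pool 3).

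Matrix and collagen genes held several of the lowest p-values. Fn1, fibronectin, was 8.5, 8.7 and 8.3 in hyperoxia and 9.1 and 9.2 in room air. All hyperoxia pools were lower, with a difference of -0.65 (SE 0.123, adjusted p = 0.715). Loxl2, an enzyme that cross-links collagen, was 5.6, 6.0 and 5.4 against 6.6 and 6.4, a difference of -0.83 (SE 0.165, adjusted p = 0.715). Fbln2, the matrix protein fibulin 2, was 5.8, 6.0 and 5.6 against 6.4 and 6.4, a difference of -0.60 (SE 0.120, adjusted p = 0.715). Without pool 3 these differences were -0.55, -0.70 and -0.50. Col4a1, a collagen of vessel basement membranes, was 5.9, 5.9 and 5.7 against 6.2 and 6.3, a difference of -0.42 (-0.35 without pool 3). The lists as a whole were mixed: 19 of 34 matrix glycoprotein genes lay below 0 and 14 above (median -0.06), and 18 of 29 collagen genes and enzymes below and 9 above (median -0.10). Dcn, decorin of connective tissue, was 4.9, 5.3 and 5.7 against 4.4 and 4.2, a difference of 1.00 (SE 0.429; 0.80 without pool 3).

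Of glial genes, Kcnj10, a potassium channel of Mueller glia and astrocytes, was 6.2, 6.3 and 6.0 against 6.6 and 6.8. Pdgfra, the growth factor receptor that marks young retinal astrocytes, was 6.1, 6.2 and 5.9 against 6.6 and 6.6. Both were lower in every hyperoxia pool, each by -0.53 (SE 0.120 and 0.122, adjusted p = 0.921), and by -0.45 without pool 3. Of all 19 astrocyte genes measured, Pdgfra and Kcnj10 among them, 11 lay below 0 and 7 above, with a median of -0.02 that was -0.10 without pool 3 and 0 after quantile normalization or median centring. Gfap, the astrocyte filament gene, was 4.7, 4.5 and 5.0 against 4.7 and 4.8, and Pax2 differed by 0.00. Gja1, connexin 43, was higher, at 7.0, 7.4 and 7.1 against 6.7 and 6.6 (0.52, SE 0.267).

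Genes that report signalling from growth factor receptors through ERK kinase were lower in most cases. Of 16 measured, 12 lay below 0 and 3 above, with a median of -0.16 (-0.15 without pool 3), and 6 (37.5%, against 6.32% of all genes) had all hyperoxia pools below room air. Etv5, a transcription factor induced by this pathway, was 7.0, 6.9 and 6.7 against 7.5 and 7.3, a difference of -0.53 (SE 0.133, adjusted p = 0.921). Dusp6, a phosphatase that switches ERK off, was 6.6, 6.7 and 6.7 against 7.0 and 7.0. Spred1, another inhibitor, was 9.3, 9.3 and 9.2 against 9.6 and 9.6. Dusp6 and Spred1 each differed by -0.33 and had no overlap. In pools 1 and 2 alone, the differences were -0.45 for Etv5, -0.35 for Dusp6 and -0.30 for Spred1. Egr1, an immediate early gene, differed by 0.00. Dusp5 lay higher in every hyperoxia pool, at 7.5, 7.5 and 7.6 against 7.3 and 7.4 (0.18). It was the 1 member (6.25%, against 6.6% of all genes) with all pools above room air.

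**Figure D3:**
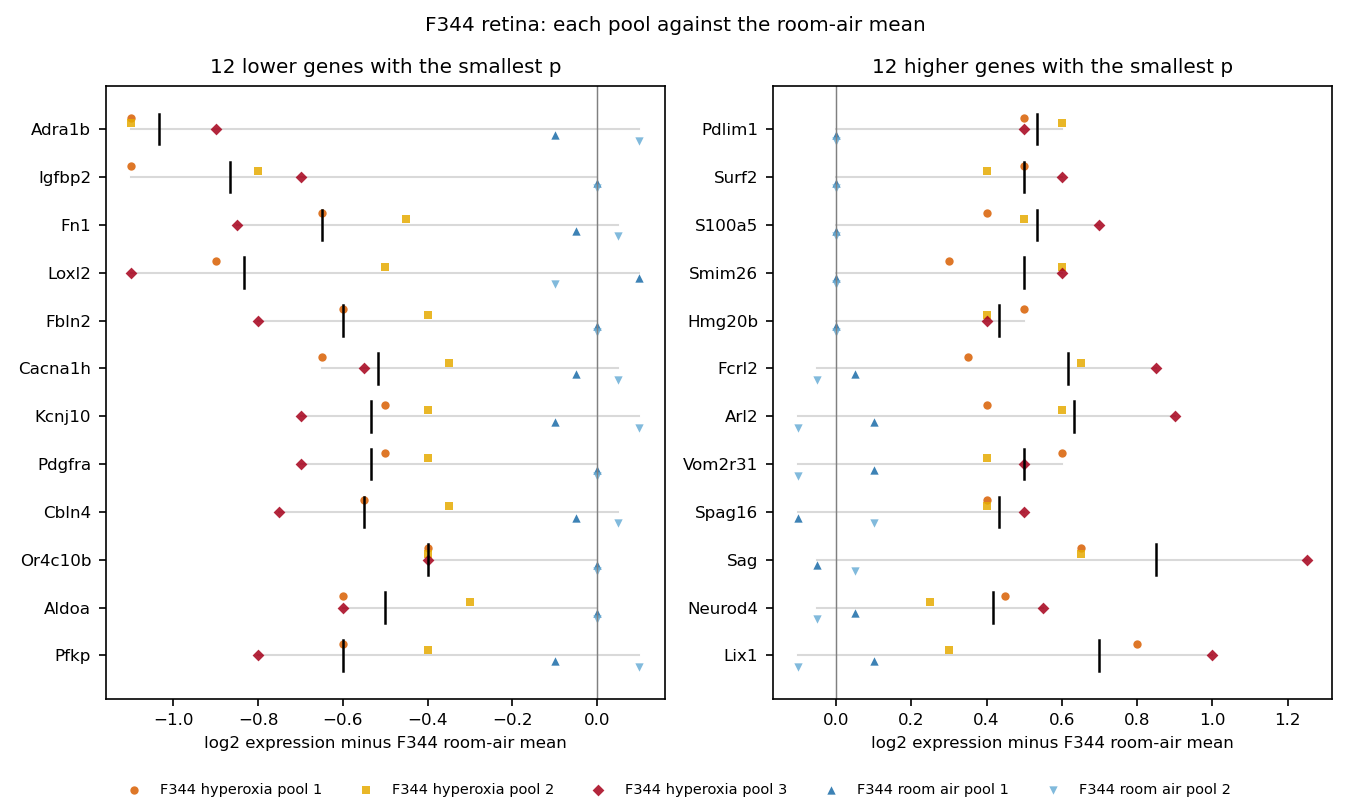
The 12 lower and 12 higher genes with the smallest p among genes whose F344 groups do not overlap, each pool drawn at its log2 level minus the room-air mean (horizontal axis), with a black bar at the hyperoxia mean. Adra1b and Igfbp2 have the widest gaps on the left, with hyperoxia pools between -1.1 and -0.7, and Sag on the right has pool 3 at 10.8, above pools 1 and 2 at 10.2.

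Among the other genes of low p on the lower side, Cacna1h, a T-type calcium channel, was 7.5, 7.8 and 7.6 against 8.1 and 8.2 (-0.52). Cbln4, a secreted synapse organiser, was 5.6, 5.8 and 5.4 against 6.1 and 6.2 (-0.55). Or4c10b, an olfactory receptor gene of low signal, was 4.1 in every hyperoxia pool against 4.5 in both room-air pools. On the higher side, Pdlim1, a cytoskeletal adaptor, had the smallest p. It was 6.2, 6.3 and 6.2 against 5.7 and 5.7, a difference of 0.53 (SE 0.105, adjusted p = 0.715; 0.55 without pool 3). Surf2 was 8.6, 8.5 and 8.7 against 8.1 and 8.1, a difference of 0.50 (SE 0.108). Hmg20b, a chromatin protein, was 7.0, 6.9 and 6.9 against 6.5 and 6.5 (0.43). Neurod4, a transcription factor of developing retinal neurons, was 11.2, 11.0 and 11.3 against 10.8 and 10.7 (0.42, SE 0.113). None of these passed. The remaining 7 of the 12 higher genes (S100a5, Smim26, Fcrl2, Arl2, Vom2r31, Spag16 and Lix1) differed by 0.43 to 0.70. All 7 had unadjusted limma p-values of 0.00123 or more. A second probe set of Vom2r31 was 4.1, 4.0 and 3.9 against 4.2 and 4.0 (-0.10), so it did not show the rise.

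Photoreceptor genes lay higher in F344 hyperoxia, and pool 3 carried much of the size. Of 39 measured, 32 lay above 0 and 6 below, with a median of 0.20, and none passed. The median was 0.10 without pool 3, with 31 above and 3 below. In 13 (33.3%) every hyperoxia pool was above both room-air pools, against 6.6% of all genes. The medians of pools 1, 2 and 3 against room air were 0.10, 0.20 and 0.35. Sag, rod arrestin, was 10.2, 10.2 and 10.8 against 9.5 and 9.6. Its difference of 0.85 (SE 0.230, adjusted p = 0.921) was 0.65 without pool 3. Gngt1, a subunit of rod transducin, was 8.8, 8.8 and 10.1 against 8.1 and 8.3, a difference of 1.03 (SE 0.430) that was 0.60 without pool 3. Pdc, phosducin, was 8.6, 8.6 and 9.8 against 8.1 and 8.1 (0.90; 0.50 without pool 3). Tulp1, a photoreceptor transport protein, was 8.0, 7.8 and 8.6 against 7.5 and 7.2 (0.78; 0.55 without pool 3). In each of these 4 genes pools 1 and 2 lay above room air and pool 3 above both.

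The regulators of photoreceptor fate were less uniform. Crx, the homeobox factor that switches on photoreceptor genes, was 11.1, 10.9 and 11.2 against 10.7 and 10.8, a difference of 0.32 (SE 0.145). Nrl, which directs cells to the rod fate, was 9.4, 9.4 and 9.6 against 9.1 and 9.2, also 0.32 (SE 0.157). Without pool 3 both were 0.25. Prdm1 (0.03), Neurod1 (-0.02) and Thrb (0.02) overlapped between the groups. Among genes of the rod outer segment, Prph2 was 9.5, 9.6 and 9.5 against 9.1 and 9.2 (0.38) and Pde6b was 7.5, 7.6 and 7.9 against 7.2 and 7.1 (0.52). Of genes used in cones, Opn1sw, the short-wave opsin, was 8.7, 8.9 and 8.8 against 8.8 and 8.6 (0.10), and Gnat2, cone transducin, differed by 0.12. Rcvrn, recoverin, was 9.1, 9.1 and 10.1 against 9.1 and 9.2, so pool 3 alone stood out (0.28; -0.05 without it).

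The promoters of Crx and of Gngt1, the photoreceptor gene with the largest difference when pool 3 is included, are printed because Crx protein binds a short core at photoreceptor genes. The windows are as above, and capitals mark TAATCC on either strand.
Crx, chr1:85681853-85682102 (minus strand): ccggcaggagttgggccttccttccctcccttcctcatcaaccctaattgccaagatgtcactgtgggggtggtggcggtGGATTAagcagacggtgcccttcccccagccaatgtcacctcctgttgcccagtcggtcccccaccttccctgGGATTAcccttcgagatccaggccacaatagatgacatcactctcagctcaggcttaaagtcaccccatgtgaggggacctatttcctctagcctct
Gngt1, chr4:32960695-32960944 (plus strand): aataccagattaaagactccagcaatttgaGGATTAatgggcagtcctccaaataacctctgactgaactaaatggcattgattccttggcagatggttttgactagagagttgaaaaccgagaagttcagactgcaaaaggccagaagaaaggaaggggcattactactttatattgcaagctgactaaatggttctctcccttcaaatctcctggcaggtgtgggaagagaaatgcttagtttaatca
The Crx window held 2 matches and the Gngt1 window 1. Of all 33469 windows 6.34% held the core, against 11 of 33 windows (33.3%) of the photoreceptor list and 1 of 48 (2.08%) of the hypoxia-inducible factor targets. The hypoxia core stood in 9 of 33 photoreceptor windows (27.3%).

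The SD room-air array numbered 3 showed the same genes high. Gngt1 was 10 there against 8.5 and 8.6 in the other SD room-air pools, Pdc 9.5 against 8.4 and 8.4, and Rcvrn 10.3 against 9.4 and 9.6. That array had no hyperoxia. The photoreceptor list lay 0.25 higher in it than in the mean of the other SD room-air pools, as a median. In the same array fibroblast genes lay 0.80 higher, lens genes 0.45 higher and cell cycle genes 0.40 lower, as medians. Hyperoxia pool 3 was the highest F344 hyperoxia pool in 24 of 39 photoreceptor genes (61.5%, against 30.9% of all genes). With a term for both arrays numbered 3, the photoreceptor median in F344 was 0.12. What sets these arrays apart was not tested.

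Genes of the mitochondrial respiratory chain lay higher too, and most of the size was pool 3. Of 54 measured, 51 lay above 0 and 0 below, with a median of 0.21 and 15 (27.8%, against 6.6% of all genes) without overlap. The medians of pools 1, 2 and 3 were 0.15, 0.125 and 0.40, while the room-air pools themselves lay 0.10 above and 0.10 below their mean. Without pool 3 the median was 0.10, and without room-air pool 2 it was 0.13. Cox7b, a cytochrome oxidase subunit, was 8.0, 7.9 and 9.0 against 8.0 and 7.3, and Ndufb9, a complex I subunit, was 9.4, 9.3 and 10.1 against 9.2 and 8.8. Their differences of 0.65 and 0.60 were 0.30 and 0.35 without pool 3. Cytosolic ribosomal protein genes also lay mostly above 0, 52 of 62, with 7 below. Their median was 0.175, and it was 0.05 without pool 3 and 0.08 without room-air pool 2. In 7 of them (11.3%, against 6.6% of all genes) every hyperoxia pool was above room air. Pools 1 and 2 alone gave 7 as well, while the share over all genes was then 10.6%. In both lists pool 3 was the highest hyperoxia pool in over 70% of genes (70.4% and 71.0%), and no member passed. Cell cycle genes lay the other way in pool 3, with a median of -0.20 there against 0.00 in pool 1 and 0.10 in pool 2. Cdc6, which licenses DNA replication, was 7.9, 8.1 and 7.0 against 8.0 and 8.1 (-0.38; -0.05 without pool 3). Pool 3 was the lowest hyperoxia pool in 29 of 34 cell cycle genes (85.3%), against 29.6% of all genes.

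Genes of defence against oxygen radicals were not called, although oxygen was the exposure. Of 39 measured, 27 lay above 0 and 11 below, with a median of 0.10 that was 0.00 without pool 3. In 7 (17.9%, against 6.6% of all genes) every hyperoxia pool was above room air, and in 1 (2.56%, against 6.32%) every pool was below. Pools 1 and 2 alone gave 8 above and 3 below, while the shares over all genes were then 10.6% and 10%. Slc7a11, the cystine importer that feeds glutathione synthesis, had the largest difference of the list. It was 6.7, 6.8 and 6.8 in hyperoxia and 6.1 in both room-air pools, a difference of 0.67 (SE 0.198, adjusted p = 0.921; 0.65 without pool 3). Nfe2l2, the master regulator of antioxidant genes, was 7.3, 7.3 and 7.7 against 7.1 and 7.2 (0.28; 0.15 without pool 3). Nqo1 (-0.03), Txnrd1 (-0.03) and Srxn1 (0.05), which it is known to regulate as it does Slc7a11, overlapped between the groups. Msra (0.38, and 0.30 without pool 3) and Gpx7 (0.35, and 0.25 without pool 3) had every hyperoxia pool above room air. Sod2, the mitochondrial superoxide dismutase, was 8.6, 8.6 and 8.8 against 8.4 and 8.4 (0.27). In the list of the unfolded protein and integrated stress response 19 of 30 lay above 0 and 10 below (median 0.09, and 0.05 without pool 3). Ddit3, a stress-induced transcription factor, was 7.0, 6.9 and 7.6 against 6.9 and 6.7 (0.37; 0.15 without pool 3), and Atf4 was 10, 9.8 and 10.1 against 9.8 and 9.8.

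Melanin genes, which mark the pigment epithelium behind the retina, held the largest higher value of all. Tyr, tyrosinase, was 5.9, 5.8 and 6.6 in hyperoxia and 5.0 in both room-air pools, a difference of 1.10 (SE 0.411, adjusted p = 0.921; 0.85 without pool 3). Tyrp1 was 6.6, 6.7 and 7.3 against 5.9 and 6.2 (0.82; 0.60 without pool 3). Mlana was 5.3, 5.4 and 5.5 against 5.0 and 5.2, and Slc45a2, a melanosome transporter, was 4.7, 4.6 and 4.8 against 4.4 and 4.4. In all 4 genes every F344 hyperoxia pool was higher. In SD, Tyr was 6.4 and 5.0 in hyperoxia and 4.7, 5.4 and 6.1 in room air, so its SD groups overlapped. Among other genes of the pigment epithelium, Rpe65, of the visual cycle, was 4.3, 4.5 and 4.5 against 4.4 and 4.4. Ttr was 8.8, 8.9 and 10 against 8.9 and 8.8, and both genes overlapped between the groups. Of the 18 measured in the list, 12 lay above 0 and 6 below, with a median of 0.15 that was 0.00 without pool 3. In 6 (33.3%, against 6.6% of all genes) every hyperoxia pool was above room air. In 2 (11.1%, against 6.32% of all genes) every pool was below. The median level of the list ranged from 5.30 to 5.70 over the F344 pools. Its part in other results was not tested.

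Markers of tissues next to the retina had list medians near 0, with single members on either side. Lens genes varied between pools: Crygd, a lens crystallin, was 4.8, 7.6 and 5.1 in hyperoxia and 6.8 and 6.1 in room air, and Cryba1 was 5.5, 8.2 and 6.8 against 7.3 and 6.7. The lens list of 14 had a median difference of -0.02, with pool 2 at 0.40. The lens and erythroid medians were 0.00 or above after quantile normalization or median centring. Medians were -0.05 for 18 skeletal muscle genes, -0.02 for 11 erythroid genes, 0.01 for 16 fibroblast genes and 0.00 for 13 genes of surface epithelium. Of the fibroblast genes, 4 (25%, against 6.32% of all genes) had all hyperoxia pools below room air (Pdgfra, Igf2, Col1a1 and Twist2). Another 2 (12.5%, against 6.6% of all genes) had all above (Dcn and Fbln1). The part of fibroblast genes in the values of matrix genes was not tested. Microglial genes (19) stood at 0.07. Retinal neurons and progenitors were also near 0, with medians of 0.08 for 18 ganglion cell genes, 0.07 for 21 amacrine and horizontal cell genes, 0.03 for 14 bipolar cell genes and 0.07 for 16 genes of progenitors and Mueller glia. Of the bipolar list 8 lay above 0 and 6 below. Its largest difference was in Trpm1, the channel of ON bipolar cells, at 5.4, 5.4 and 5.5 against 5.0 and 5.0 (0.43, SE 0.199). The bipolar genes Grm6 (-0.02) and Prkca (-0.07) did not follow it.

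**Figure D4:**
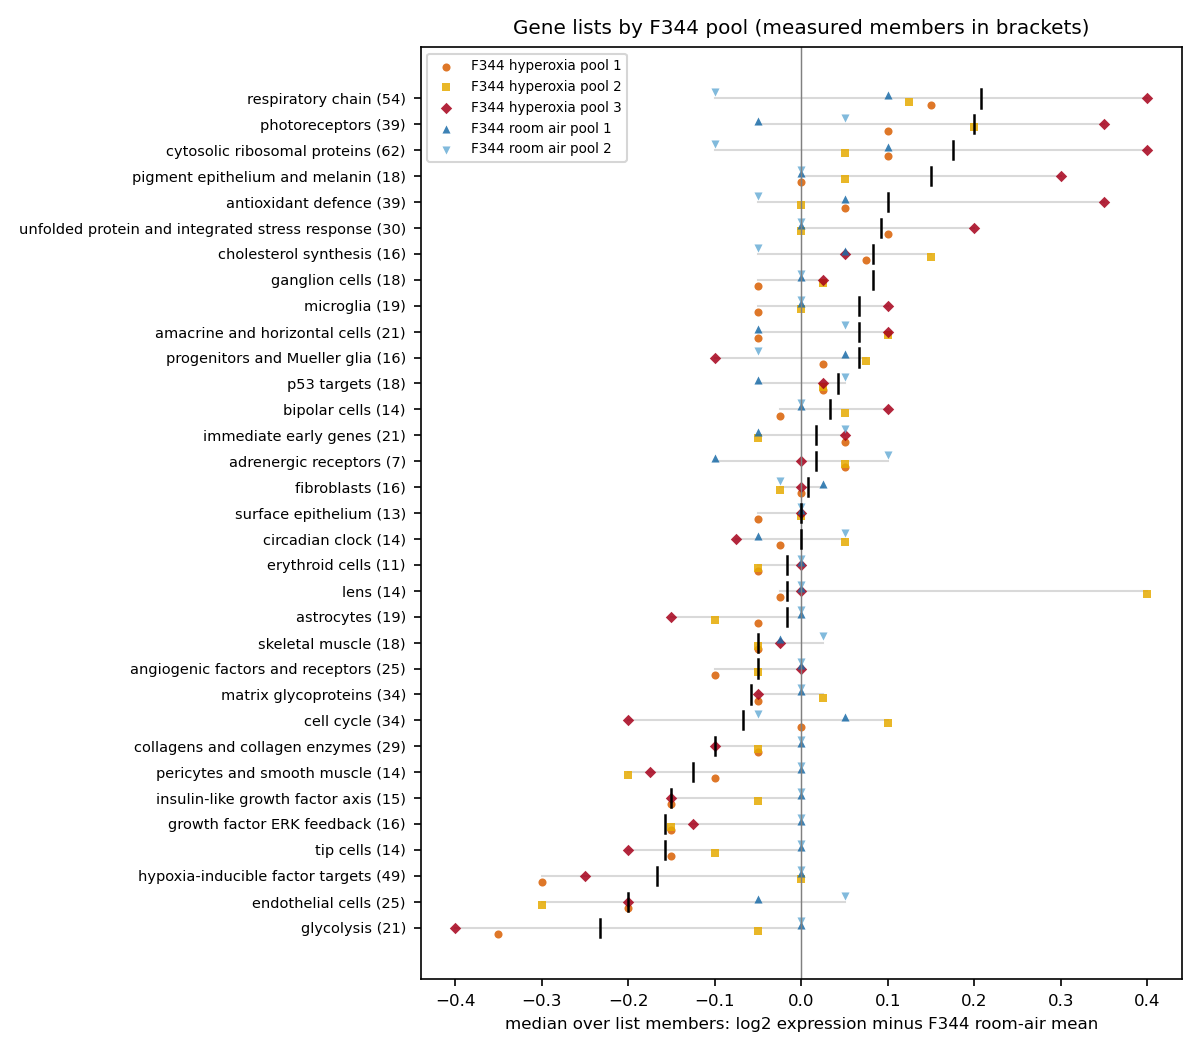
For each gene list, points give the median over members of the log2 level minus the F344 room-air mean in each of the 5 F344 pools, and the black bar gives the median over members of the difference between group means. Glycolysis is lowest (-0.23) and respiratory chain highest (0.21); pool 2 lies at 0.00 for hypoxia-inducible factor targets, and pool 3 at 0.40 for respiratory chain and ribosomal proteins.

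The same exposure in SD was compared by subtracting the F344 effect from the SD effect. By limma no gene passed for that difference (0%), while 1000 (6.98%) had an unadjusted p under 0.05. Of these the effect was lower in SD in 656 (4.58%) and higher in SD in 344 (2.40%). Among the 49 hypoxia-inducible factor targets 16 had such a p, all with the lower effect in SD, and the SD median was -0.47 against -0.17 in F344. Bnip3 was -0.15 in F344 and -1.60 in SD, a difference of -1.45 (SE 0.303, adjusted p = 0.651). Vegfa was -0.20 and -1.18, a difference of -0.98 (SE 0.255), and Egln3 was -0.18 and -1.53, a difference of -1.35 (SE 0.367). Pfkfb3 was 0.17 in F344 and -1.40 in SD (difference -1.57, SE 0.341). Igfbp2 was lower in both strains, -0.87 and -1.85 (difference -0.98, SE 0.180). For these genes the F344 value was the smaller in size, and no difference passed adjustment.

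Other genes had like values in both strains or a larger one in F344. Adra1b was -1.03 in F344 and -0.13 in SD, a difference of 0.90 (SE 0.156, adjusted p = 0.651), the SD pools standing at 5.8 and 5.8 in hyperoxia and 6.0, 5.9 and 5.9 in room air. Loxl2 was -0.83 and -0.85 (difference -0.02, SE 0.233). Aldoa was -0.50 and -0.62, Pgk1 -0.63 and -0.50, and Pfkp -0.60 and -0.43, while Hk2 was -0.37 and -1.28 and Pfkl -0.53 and -0.83. The glycolysis medians were -0.23 in F344 and -0.43 in SD, and 2 of 21 genes had an unadjusted p under 0.05 for the difference. Of 25 endothelial genes none had such a p, with medians of -0.20 in F344 and -0.32 in SD. Sag was 0.85 in F344 and -0.07 in SD (difference -0.92, SE 0.326), and 6 of 39 photoreceptor genes had a p under 0.05 with the lower effect in SD. The SD room-air group holds the array numbered 3, so that array enters these differences together with hyperoxia pool 3. Without pool 3 the differences were -1.25 for Bnip3, -1.03 for Vegfa, -1.38 for Egln3, -1.65 for Pfkfb3, -0.90 for Igfbp2, 0.97 for Adra1b, -0.15 for Loxl2 and -0.72 for Sag. Without both arrays numbered 3 they were -1.10, -1.05, -1.25, -1.75, -0.85, 0.95, -0.25 and -0.50 in the same order, and none passed in either fit.

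**Figure D5:**
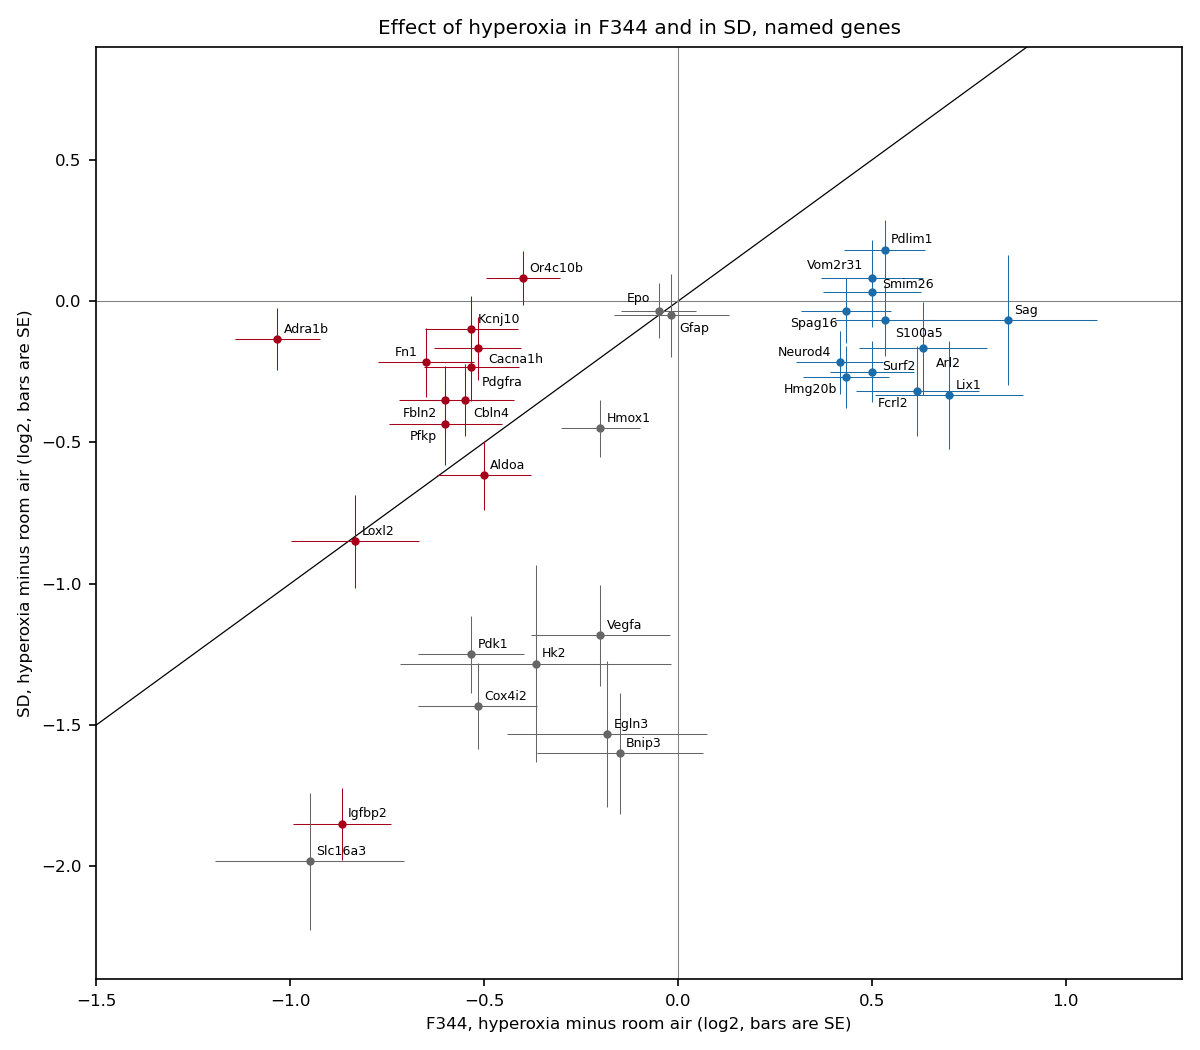
The log2 difference between hyperoxia and room air in F344 (horizontal axis) and SD (vertical axis) for the genes of lowest p in F344, lower ones red and higher ones blue, and for other genes fixed by name in grey; bars are standard errors and the line marks equal effects. Bnip3, Egln3 and Vegfa lie far below the line, Adra1b far above it, and Loxl2 and Aldoa near it.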

How the data were processed

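Retinal RNA of 10 pools was measured on 10 arrays, 5 of them F344. The deposited values are log2 expression per probe set. Per the submitters' processing notes the tools were Partek 6.4 and RMA; further settings were not given in the sources used here. Values carry 1 decimal, which blurs small differences, and precision is limited by how few arrays there are.

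All 27342 probe sets were fitted in R 4.3.3 with limma 3.58.1: 1 mean per group over 10 arrays (6 residual degrees of freedom), eBayes, two-sided, Benjamini-Hochberg over all probe sets, threshold 0.05. Of these, 15097 had 1 symbol in the platform annotation, 323 several and 11922 none there. A gene is its singly named probe set with the highest mean (14324 genes, 499 with several). Entrez identifiers of 15067 matched the RefSeq table of GRCr8, which gave current symbols and, in its promoter table, the sequences.

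Named genes were those that passed, the 12 lower and 12 higher genes of smallest p without overlap between pools, the 3 largest differences of each of 33 lists, and 14 fixed genes. Other list members describe a list and were picked with their values in view. Lists share members, such as Slc16a3 and Loxl2. Members and lists were chosen with earlier results of these data known. The alternatives were leaving out arrays, a term for the arrays numbered 3, a replicate block, F344 arrays only, trend and robust eBayes, the brighter probe sets, quantile normalization, median centring, array weights and averaging all probe sets of a gene. The script was tested on simulated data.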

Additional observations from a re-analysis of the deposited data

Results flagged for a closer look

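Of the genes named, 9 had pools that did not overlap in either strain and moved in opposite directions. In each, all F344 hyperoxia pools lay above F344 room air, and both SD hyperoxia pools lay below SD room air. The SD effect minus the F344 effect was -0.43 for Elavl4, an RNA-binding protein of neurons (0.25 in F344, -0.18 in SD). It was -0.52 for Gpx7, a peroxidase of the secretory pathway (0.35 and -0.17), -0.70 for Hmg20b (0.43 and -0.27), -0.77 for the immediate early gene Ier2 (0.42 and -0.35), -0.63 for Neurod4 (0.42 and -0.22) and -0.75 for Surf2 (0.50 and -0.25). It was -0.78 for Adm (0.23 and -0.55), -0.75 for Nfe2l2 (0.28 and -0.47) and -1.13 for Ptn (0.83 and -0.30). By limma the unadjusted p ran from 3.33e-04 (Surf2) to 0.0224 (Elavl4), and the adjusted p was 0.651 for each. Surf2, Hmg20b and Neurod4 were named because their F344 pools did not overlap. Elavl4, Gpx7 and Ier2 were named as among the 3 largest differences of their lists. Adm, Nfe2l2 and Ptn were picked with their values in view. The 9 were thus selected on these same values, and their number cannot be set against a share over all genes. Without pool 3 the F344 differences ran from 0.15 (Elavl4 and Nfe2l2) to 0.55 (Ptn). The SD room-air array numbered 3 also enters the SD values. Over all genes, 175 (1.22%) had no overlap in opposite directions, whichever strain was higher. Another 109 (0.761%) had no overlap in the same direction in both strains, 78 lower and 31 higher.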

How the results depend on the processing

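The count of genes that fell in F344 was 1 (Adra1b) and ran from 0 to 1 when each array was left out in turn: 1 without F344 hyperoxia pool 3 or SD room-air pool 3, and 0 without any of the other 8. It was 0 without both arrays numbered 3, 0 with only the 5 F344 arrays and 0 among the brighter probe sets, where Adra1b was not tested. It was 2 with a term for the arrays numbered 3 and 2 with array weights, Igfbp2 being the second. With the replicate number as a block (replicate block) it was 2 (Adra1b and Igfbp2, adjusted p = 0.0249 for both). Deviations of same-numbered F344 hyperoxia and room-air arrays correlated at -0.016 and 0.108. The 2 room-air deviations mirror each other, so these values cannot show whether replicate numbers pair the F344 samples. Between F344 hyperoxia and SD room air, same-numbered arrays correlated at 0.314, 0.397 and 0.643. Arrays of different number there ran from -0.485 to 0.233. Pairs of an array numbered 1 with one numbered 2 stood at 0.142 and 0.233, and pairs with 1 array numbered 3 ran from -0.485 to -0.345. Deviations within a group of 3 sum to 0, so these values depend on each other. They cannot show whether replicate numbers pair these samples either. The cause of these changes in the count was not tested. The count that rose and the count for the SD minus F344 difference were 0 under every alternative run; with only the F344 arrays the difference has no value. No named gene that passed changed sign under these alternatives. Leaving out a room-air pool leaves 1 array in that group, whose spread is taken from the other groups. The median over all genes was -0.003 after quantile normalization and 0.02 after median centring.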

Other observations

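Some neuropeptide and growth factor genes had large higher values in F344 hyperoxia. Sst, somatostatin, was 8.2, 8.1 and 8.9 in hyperoxia and 7.6 and 7.4 in room air (0.90, SE 0.305; 0.65 without pool 3). Ptn, pleiotrophin, a secreted growth factor, was 9.6, 9.3 and 10.3 against 9.0 and 8.8 (0.83, SE 0.235; 0.55 without pool 3). Neither passed by limma (adjusted p = 0.921). Pmch, which encodes melanin-concentrating hormone, was 5.6, 5.6 and 8.0 against 5.3 and 5.4, so pool 3 alone stood out. In SD room air Pmch was 4.8, 4.9 and 7.0, the last value again in the array numbered 3. These genes were chosen after their values were seen.

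Genes of cholesterol synthesis lay slightly higher, 11 of 16 above 0 and 5 below, with a median of 0.08 (0.10 without pool 3). Pool 2 had 16 of 16 members above the room-air mean and 0 below, with a median of 0.15, against 0.00 over all genes. Clock genes (14, median 0.00), immediate early genes (21, median 0.02) and p53 targets (18, median 0.04) lay near 0. Of the p53 targets, Cdkn1a, a brake on the cell cycle, was 7.1, 7.3 and 7.2 against 6.9 and 7.0 (0.25, SE 0.110).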
